A study of Mus musculus with 54 samples.

Results

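The last interval of an induction course was examined, from 24 to 72 h after the transcription factor Ebf1 was switched on in mouse B-cell progenitors that lack it. Its members were all rows of both deposited tables of Ebf1-bound regions, with no selection on their values, which gave 1172 of the 4983 regions of the study's accessibility table. They comprised 256 regions closed in Ebf1-KO cells (the closed regions) and 916 open in those cells (the open regions). Each carries the symbol of its nearest gene, with 799 symbols in all, and 36 regions have no symbol. A Pax5 peak was marked by the authors at 636 of them (93 closed and 543 open), and 178 were annotated as promoters.

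Cells were fetal liver progenitors of Ebf1-KO mice (C57BL6/J background, labelled ProB) that carried the retroviral vector pMiG-Ebf1ER. The cultures, on OP9 stroma, received the cytokines interleukin-7, FLT3 ligand and KIT ligand. Cells were harvested at 0, 6, 24 and 72 h of 4-hydroxytamoxifen (4OHT, 1 mM in the labels) for ATAC-seq, which counts transposase cuts in open chromatin. All groups share the Ebf1 deletion and the vector, and the column names add that the cells were GFP-positive. The labels give 2 samples per time, and each time is 1 pooled column, so there is no replicate spread and no test: each difference is between pools, and the intervals given are 95% intervals for counting error only. No sample is labelled as given 4OHT without Ebf1ER, and so the effects of Ebf1ER, of 4OHT and of time in culture cannot be told apart. Ebf1 binding and Pax5 peaks were defined in the Abelson-transformed line 230-238, not in these cells, and all regions lay near genes that the authors had chosen as enriched in wild-type (Wt) progenitors. In bulk tags, more cells with an open region and more cuts per cell cannot be told apart.

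Ebf1 is the transcription factor that commits lymphoid progenitors to the B lineage, and cells without it stop before the stage at which B-lineage genes become active. Fused to the hormone-binding domain of the oestrogen receptor, it stays inactive until 4OHT is added. Its known targets include Pax5, which acts with it in later progenitors, and parts of the pre-B-cell receptor: the surrogate light chain (Igll1, Vpreb1 and Vpreb2) and the signalling chains Cd79a and Cd79b. Foxo1 is a further factor of this network and is needed for the recombinase genes Rag1 and Rag2.

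Sequences are shown for 3 promoters whose accessibility was higher at 72 than at 24 h and whose genes belong to that programme. Igll1 (chr16:16863936-16864235, minus strand) and Cd79a (chr7:24897247-24897546, plus strand) are classic Ebf1 targets. Pou2af1 (chr9:51213440-51213739, plus strand) encodes the B-cell coactivator of octamer factors. They run 5′ to 3′ from 250 bases before to 50 after the start site, on GRCm38.p6 from RefSeq, and each window lies inside its member region. Capitals mark the 9 bases CTCNNGGGA or its reverse complement, a pattern chosen after these sequences had been read. None of the 3 windows held CCCNNGGGA, the spelling nearest to the palindrome that Ebf1 is known to bind.
Igll1 promoter: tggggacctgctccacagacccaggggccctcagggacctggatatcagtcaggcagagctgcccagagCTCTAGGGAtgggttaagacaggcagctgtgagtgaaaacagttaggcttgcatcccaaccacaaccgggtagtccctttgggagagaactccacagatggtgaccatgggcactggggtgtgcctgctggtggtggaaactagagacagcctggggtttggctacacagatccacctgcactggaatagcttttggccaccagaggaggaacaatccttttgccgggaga
Cd79a promoter: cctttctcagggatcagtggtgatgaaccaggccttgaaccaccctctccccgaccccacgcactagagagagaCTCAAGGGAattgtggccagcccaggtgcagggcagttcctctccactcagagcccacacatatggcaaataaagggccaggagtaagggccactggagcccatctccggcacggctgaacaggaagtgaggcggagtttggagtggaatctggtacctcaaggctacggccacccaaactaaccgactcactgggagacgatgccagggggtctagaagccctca
Pou2af1 promoter: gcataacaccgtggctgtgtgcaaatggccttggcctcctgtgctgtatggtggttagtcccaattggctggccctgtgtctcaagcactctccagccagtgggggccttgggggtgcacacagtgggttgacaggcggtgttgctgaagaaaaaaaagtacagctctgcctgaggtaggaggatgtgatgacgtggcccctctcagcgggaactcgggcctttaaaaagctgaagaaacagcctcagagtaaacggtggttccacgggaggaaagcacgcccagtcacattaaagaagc
The match starts at base 70 of the Igll1 window (181 bases before the start site) as CTCTAGGGA, and at base 75 of the Cd79a window (176 bases before it) as CTCAAGGGA. Pou2af1 held no match. On both strands, CTCNNGGGA was found in 7.33% of all 32851 RefSeq promoter windows and in 17.0% (30) of the 176 windows that overlap 132 of the member promoter regions. CCCNNGGGA was found in 6.56% and 15.3%. Its longer form with a T in front, whose matches are all within those, was found in 0.904% and 3.98%. A match is a description of letters, not a binding site.

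Across all regions the step from 24 to 72 h was small. Each pool was scaled by the authors to 10000000 tags, and values below are these scaled tags, not divided by region length. The unscaled totals were 47293654, 34710011, 36612801 and 34710016 at 0, 6, 24 and 72 h. Why the totals at 6 and 72 h are nearly the same is not known. The median region held 9.09, 12.4, 15.2 and 16.4 tags at 0, 6, 24 and 72 h. The median log2 ratio of 72 to 24 h, with 1 tag added to each value, was 0.05 (quartiles -0.16 and 0.30), against 0.26 from 0 to 6 h and 0.25 from 6 to 24 h. Scaling by TMM (a trimmed mean of ratios that centres the typical region) moved the late median to 0.03, and the earlier medians to -0.0076 and -0.0022, so the order of the steps depends on this scaling. At least 1.5-fold higher at 72 h were 105 regions (8.96%), and 62 (5.29%) were at least 1.5-fold lower. The earlier steps had 236 regions higher (20.1%) and 41 lower (3.5%) from 0 to 6 h, and 213 higher (18.2%) and 56 lower (4.78%) from 6 to 24 h. Under TMM the share of regions with a log2 ratio above 0 went from 77.0% to 49.4% for 0 to 6 h. For 6 to 24 h it went from 75.5% to 49.7%, and for the late step from 57.0% to 53.4%. Early calls at 1.5-fold were not counted under TMM. The steps share columns with their neighbours. A 2-fold late difference was found at 14 regions upwards (1.19%) and 16 downwards (1.37%). Where the interval of the tag ratio also had to leave out 1, there remained 65 regions higher (5.55%) and 33 lower (2.82%). The highest of the 4 values was at 72 h in 560 regions and at 24 h in 422.

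**Figure D1:**
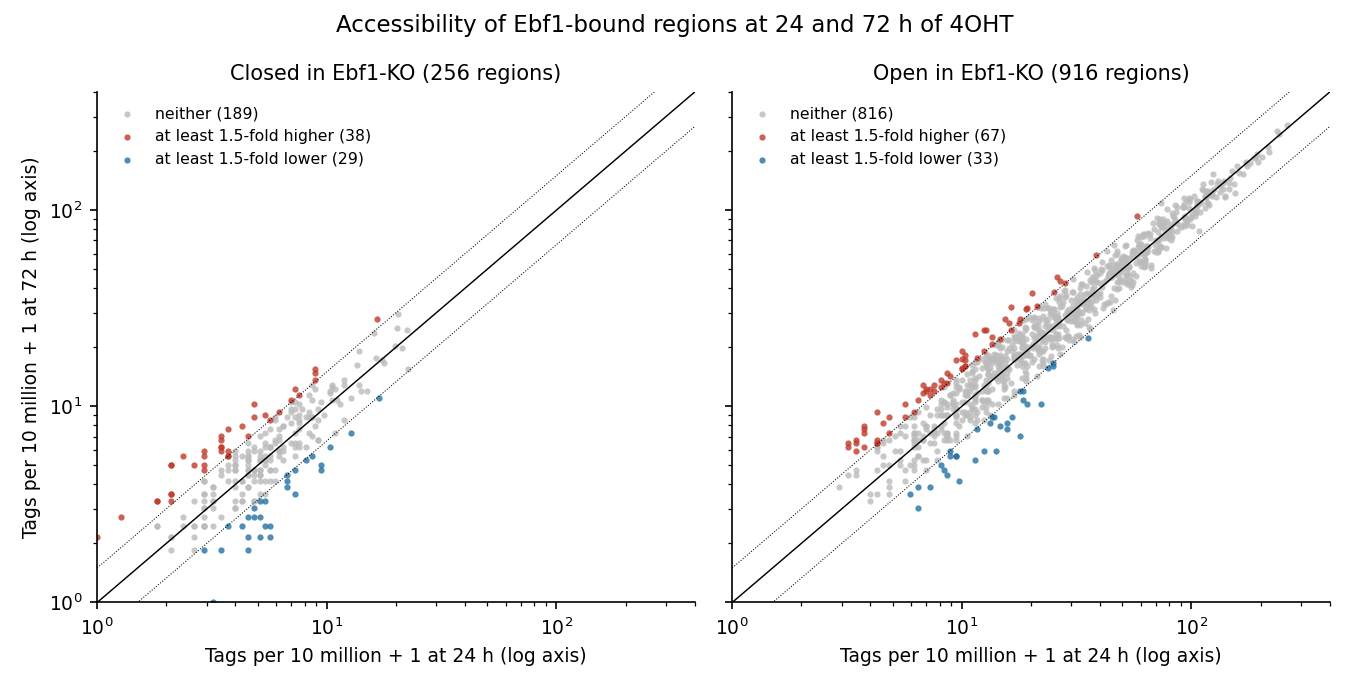
Each point is a region, with its scaled tags plus 1 at 24 h (x axis, log scale) and at 72 h (y axis, log scale), closed regions left and open regions right; the solid line marks equal values and the dotted lines a 1.5-fold ratio. Red points (38 closed, 67 open) lie above the upper line and blue points (29 closed, 33 open) below the lower one, and most of both lie at low levels.

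Counts past 1.5-fold went with low levels in both directions. Regions were binned by their mean at 0 and 6 h, which the late ratio does not use. Of 291 regions under 5 tags, 50 were higher at 72 h (17.2%) and 32 were lower. Between 20 and 40 tags the shares were 2.17% and 0.543% of 184, and over 40 tags 0.498% and 0% of 201. The 1 region above 40 tags that passed was in an intron of Grn, the progranulin gene, named after its values were seen: 57.5, 63.4, 57.1 and 92.5 tags in time order, 1.62-fold (1.36 to 1.94) higher at 72 h. The share of sampling noise in the low bins was not tested.

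Closed regions passed the threshold more often than open ones, but they are also the regions of low signal. Of the 256 closed regions, 38 were higher (14.8%) and 29 lower (11.3%), with medians of 4.37 tags at 24 h and 4.61 at 72 h. The 916 open regions had 67 higher (7.31%) and 33 lower (3.60%), with medians of 21.6 and 22.2 tags. Where the interval also had to leave out 1, 14 closed regions were higher and 11 lower, against 51 and 22 open ones. Closed regions were then 21.5% of the gains and 33.3% of the losses, beside 21.8% of all regions. That rule asks for a larger ratio where tags are few, as in closed regions. Within one level the order was not always the same. Under 5 tags, 32 of 211 closed regions (15.2%) and 18 of 80 open ones (22.5%) were higher, and 25 (11.8%) and 7 (8.75%) were lower. Between 5 and 10 tags, 6 of 42 closed regions (14.3%) and 28 of 231 open ones (12.1%) were higher, and 4 (9.52%) and 14 (6.06%) were lower. The median log2 ratio was 0.06 in closed and 0.05 in open regions.

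Regions with a Pax5 peak in the Abelson line had the same share of late gains as those without one, and fewer losses. Of 636 with a peak, 57 were higher (8.96%) and 23 lower (3.62%). Of 536 without, 48 were higher (8.96%) and 39 lower (7.28%). Both medians were 0.05. Levels differ here too, at a median of 22.3 tags at 24 h with a peak and 11.2 without. Between 5 and 10 tags at the start, 24 of 138 regions with a peak (17.4%) and 10 of 135 without (7.41%) were higher, while 9 in each were lower. The order of gains was not the same at each level. Under 5 tags the shares higher were 20.8% with a peak and 15.1% without. At 10 to 20 tags they were 6.78% and 7.62%, at 20 to 40 tags 1.77% and 2.82%, and over 40 tags 0.621% and 0%. Open regions with a Pax5 peak were those with the fewest losses among the 4 combinations, 14 of 543 (2.58%), beside 41 gains (7.55%). Open regions without a peak had 19 losses of 373 (5.09%), closed regions without one had 20 of 163 (12.3%), and closed regions with one had 9 of 93 (9.68%).

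Promoters showed less late difference than other regions. Of 178 promoters, 6 were higher (3.37%) and 6 lower (3.37%), at a median of 0.01 that turned to -0.02 under TMM. Among the 994 others 99 were higher (9.96%) and 56 lower (5.63%). Promoters are also stronger, with a median of 37.8 tags at 24 h against 13.1. By annotation, 44 of 374 intergenic regions were higher and 23 lower, and 42 of 484 intronic regions were higher and 31 lower.

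**Figure D2:**
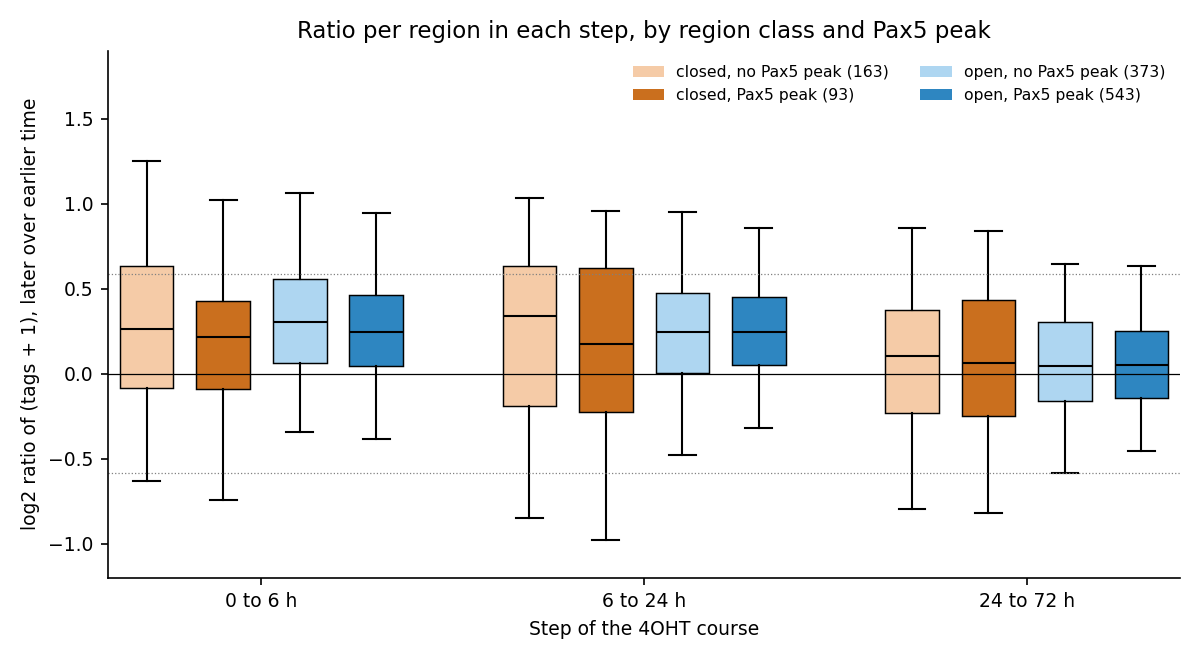
Boxes show the log2 ratio per region (y axis, later over earlier value with 1 tag added) for each step of the course (x axis), split by closed or open in Ebf1-KO and by Pax5 peak; the line is the median, the box the quartiles, the whiskers the 5th and 95th percentiles, and dotted lines mark 1.5-fold. Medians of the last step lie near 0 in all 4 combinations, between 0.05 and 0.10, and closed regions have wider boxes than open ones.

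Regions that gained early were not more often among the late gains. The 0 to 6 h ratio shares no column with the late ratio. It uses the authors' scaling, and the early gains were not called again under TMM. Of the 236 regions at least 1.5-fold higher by 6 h, 17 (7.20%) were again at least 1.5-fold higher from 24 to 72 h and 10 (4.24%) were lower. Among the other 936 regions, 88 (9.40%) were higher and 52 (5.56%) lower. In closed regions 5 of 63 early gainers (7.94%) and 33 of 193 others (17.1%) were higher late. In open regions the shares were 12 of 173 (6.94%) and 55 of 743 (7.40%). Igll1, Cd79a and Fcrla are among the regions that were higher in both steps.

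Late gains were ranked by ratio among regions with at least 20 tags at either time, with at most 1 region per gene. An intergenic region next to Fcrla, which encodes an intracellular Fc receptor-like protein of B cells, held 5.92, 11.8, 15.3 and 31.1 tags, 2.03-fold (1.46 to 2.86) higher. Its counting intervals at 24 and 72 h did not overlap. The ranking used these same values, and the intervals of the ranked regions, here and below, do not allow for that choice.

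The surrogate light chain and Foxo1 were in the same group. The Igll1 promoter, shown above, held 70 tags before scaling at 24 h and 127 at 72 h, which are 19.1 (14.9 to 24.2) and 36.6 (30.5 to 43.5) per 10000000. Its ratio was 1.91 (1.42 to 2.60), and the intervals did not overlap. The intergenic Foxo1 region at chr3:52443632-52444742 was 1.80-fold (1.38 to 2.35) higher, from 24.9 (20.0 to 30.5) to 44.7 (37.9 to 52.3) tags. It lies 175850 bases from the annotated start, and the PLAC-seq contacts of the Abelson line (pairs of 5 kb bins) link it to the Foxo1 promoter. The other Foxo1 region, at 190244 bases, held 8.47 and 11.5 tags, 1.36-fold (0.830 to 2.25).

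In other regions of this group the values did not rise at each step. Snn, for the small membrane protein stannin, held 11.4, 12.1, 11.5 and 23.3 tags in its intron. Cmah, for the enzyme that makes N-glycolylneuraminic acid, held 13.3, 17.3, 14.5 and 26.8 in its intron. A region near Zfp287, a zinc finger gene, held 14.0, 14.4, 12.6 and 21.6, and one near A230028O05Rik held 12.9, 17.6, 11.7 and 23.3. In these 4 regions the 24 h value lay below the 6 h value and the 72 h value was the highest, at 1.72-fold to 2.03-fold the 24 h value. The ranking itself favours a low 24 h value and a high 72 h one. At Snn the 6 and 24 h values rest on 42 tags each before scaling. By contrast, Pxk, which encodes a phox-domain kinase-like protein, held 6.77, 9.51, 15.02 and 25.6 tags, with each value above the one before. Chchd10, for a mitochondrial protein, held 10.2, 12.4, 18.3 and 30.8, and Mfsd4, for a transporter-like protein, 13.1, 17.3, 18.0 and 30.2, each 1.68-fold higher at 72 h. The strongest closed region of the group, at 1700027J07Rik, held 5.07, 7.49, 15.6 and 26.8 tags, 1.72-fold (1.22 to 2.44) higher. It reached 118 tags in Wt.

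**Figure D3:**
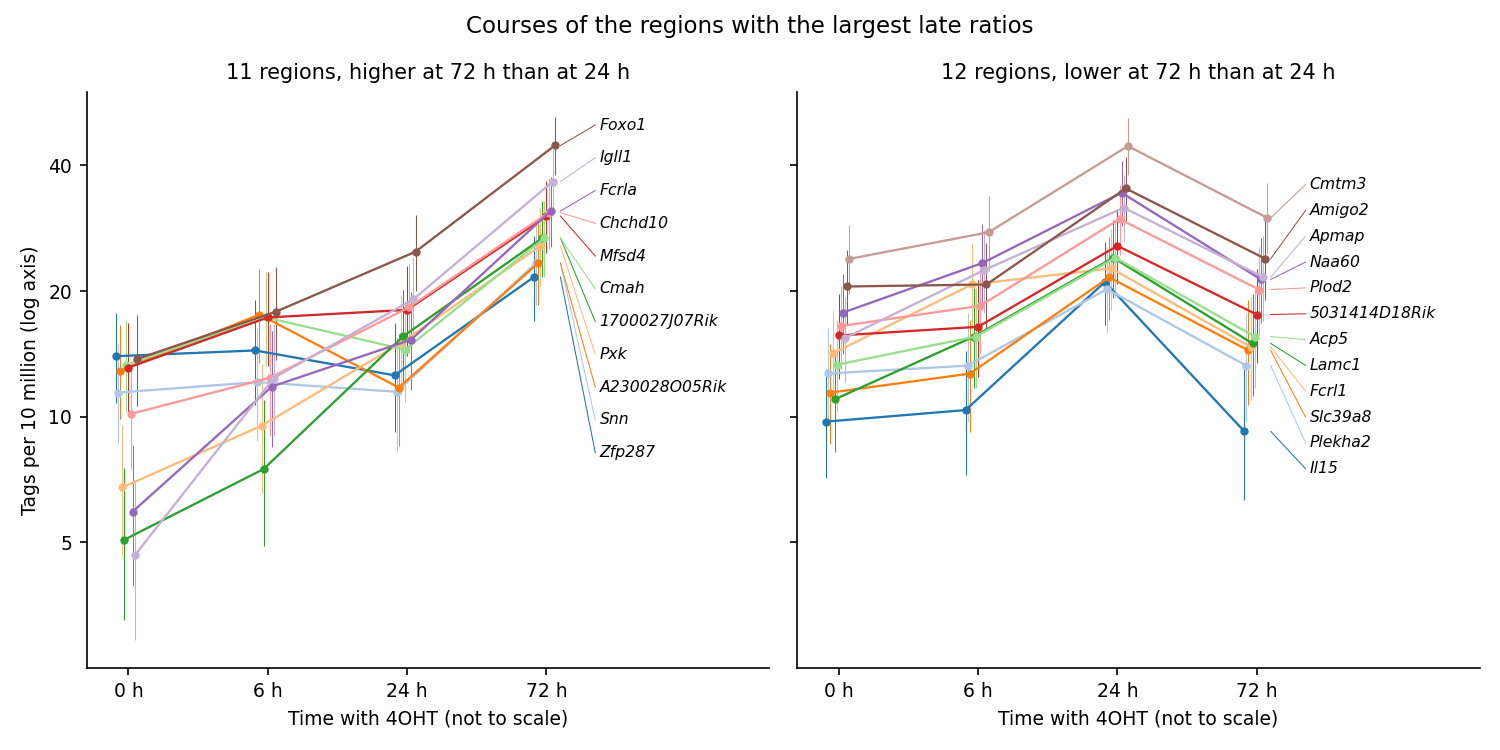
Lines show scaled tags (y axis, log scale) at 0, 6, 24 and 72 h of 4OHT (x axis, evenly spaced) for 11 of the regions with the largest late ratios upwards (left) and 12 downwards (right) that have at least 20 tags at 24 or 72 h; bars are 95% counting intervals. The regions on the right are highest at 24 h, as Il15 (21.03 tags, then 9.22), and those on the left at 72 h, as Foxo1 (44.7 tags). The choice by ratio favours both.

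The 12 regions with the smallest ratios of 72 to 24 h among those with at least 20 tags had their highest value at 24 h. Choosing by this ratio favours a high 24 h value and a low 72 h one, so that course is not read as a result. Of these 12, only Il15, Naa60, Lamc1, Acp5 and Fcrl1 were at least 1.5-fold lower with 1 tag added and so among the 62 losses. The Il15 promoter, for a cytokine that acts on lymphocytes, held 9.73, 10.4, 21.03 and 9.22 tags, a 72 h value 0.438 times (0.281 to 0.670) that at 24 h. Intronic regions of Naa60, an N-terminal acetyltransferase gene, and Lamc1, a laminin gene, were also lower. The first held 17.8, 23.3, 34.4 and 21.3 tags, and the second 24.0 at 24 h and 14.98 at 72 h. Their ratios were 0.619 (0.458 to 0.832) and 0.623 (0.434 to 0.888). At 72 h Il15 and Naa60 were at or near their values at 0 and 6 h. The Fcrl1 region, at the gene of an Fc receptor-like surface protein of B cells, held 14.2, 20.7, 22.7 and 14.7 tags, a ratio of 0.648 (0.448 to 0.930). Acp5, the tartrate-resistant acid phosphatase gene, had a ratio of 0.647. Short of 1.5-fold once 1 tag was added, Cmtm3 (0.673), Amigo2 (0.679), Plekha2 (0.656), Plod2 (0.677), Apmap (0.682) and 5031414D18Rik (0.685) had ratios whose intervals also lay below 1. Without the added tag, only Plekha2 among these was past 1.5-fold. The only closed region among the 12, the Slc39a8 promoter, for a zinc and manganese transporter, was also short of 1.5-fold, with 21.6 and 14.4 tags (0.668, 0.459 to 0.963).

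Among regions with at least 10 tags, the largest losses by ratio besides Il15 rested on fewer tags. With 1 tag added, Il15 (log2 -1.11) ranked between Elfn1 (-1.26) and Tnfaip3 (-1.10). An intronic region of Alpl, the tissue-nonspecific alkaline phosphatase gene, held 10.2, 6.34, 16.9 and 6.05 tags, a ratio of 0.357 (0.207 to 0.594). Elfn1 (13.1 and 4.90 tags at 24 and 72 h), Tnfaip3 (10.4 and 4.32), Atp1b1 (11.5 and 4.90) and the Phf11b promoter (14.8 and 6.63) followed among open regions, at ratios of 0.374 to 0.449. Tnfaip3 encodes a brake on NF-κB signalling and Atp1b1 a subunit of the sodium pump. In closed regions, Pde8a, a phosphodiesterase gene, held 2.33, 1.15, 11.7 and 6.34 tags (0.540, 0.307 to 0.922). All 6 were highest at 24 h, which the choice by ratio favours here too. The highest-ranked closed gains past 10 tags besides 1700027J07Rik were near Cerk, the ceramide kinase gene (6.28 and 11.2 tags, 1.79-fold, 1.04 to 3.14), and Rag2. Glcci1 (1.58, 0.918 to 2.77) passed 1.5-fold with an interval that held 1, and Klf10 (1.52, 1.06 to 2.18) was just short of it once 1 tag was added.

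The pre-B-cell receptor and its signalling were described gene by gene, each by its region of highest mean over the course. Of 30 listed genes 14 had a region, and at 72 h 4 were at least 1.5-fold higher and 2 lower, beside 8.96% and 5.29% of all regions. The median log2 ratio was 0.20 against 0.05 for all regions. Over all 20 regions of these genes it was 0.09, with 10 above 0 and 10 below, 5 higher and 3 lower. Among the chains themselves, the Cd79a promoter held 74 tags before scaling at 24 h and 109 at 72 h, or 20.2 (15.9 to 25.4) and 31.4 (25.8 to 37.9) per 10000000. Its ratio was 1.55 (1.15 to 2.12), and the counting intervals did not overlap. A closed region near Cd79b held 1.27, 1.44, 2.46 and 5.76 tags, 2.34-fold (1.02 to 5.85) higher on 9 and 20 tags. Both signalling chains were thus higher at 72 h, Cd79b from near the detection limit.

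Surrogate light chain genes differed among themselves. Beside Igll1, the Vpreb2 promoter held 5.71, 5.47, 7.10 and 11.5 tags (1.62, 0.966 to 2.77). The stronger region near Vpreb2 held 18.0, 36.3, 35.8 and 44.7 (1.25, 0.983 to 1.59). The Vpreb1 promoter, closed in Ebf1-KO, held 4.10 (2.29 to 6.76) and 1.73 (0.634 to 3.76) tags on 15 and 6 tags before scaling, a ratio of 0.422 (0.134 to 1.15), so a difference was not detectable at this depth. In Wt it held 32.1 tags.

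Signalling genes differed in their ratios. Blk, a Src-family kinase, held 62.8 and 60.8 tags in its strongest intronic region (0.968, 0.799 to 1.17). The adaptor genes Pik3ap1 and Dok3 held 42.1 and 60.8 (1.45, 1.17 to 1.79) and 44.5 and 51.3 (1.15, 0.926 to 1.43) at their promoters. The interval of Pik3ap1 lay above 1 and that of Dok3 held it. A second, closed Pik3ap1 region was lower, at 4.64 and 1.15 tags at 24 and 72 h (0.248, 0.0608 to 0.761). Cd22, an inhibitory coreceptor, held 20.5 and 18.7. Fcrla and Fcrl1, given above, are in this list and differed in direction.

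B-lineage transcription factors gave no common direction. Of 24 listed genes 10 had a region, with 2 higher and none lower by the strongest region, beside 8.96% and 5.29% of all regions. The median was 0.11 by the strongest region and -0.04 over all 17 regions of these genes, where 3 were higher and 1 lower, so its sign depends on that choice. Besides Foxo1, the Pou2af1 promoter was 2.06-fold (1.19 to 3.67) higher, with 7.40, 6.05, 5.74 and 11.8 tags. That is 41 tags before scaling at 72 h, and Wt held 123 per 10000000. An intronic region of Tcf3, the E2A gene, held 6.77, 4.61, 5.74 and 10.7 (1.86, 1.06 to 3.34), while the stronger Tcf3 region held 21.6 and 21.03 at 24 and 72 h.

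For 4 other factors the 72 h value was the smaller of the pair. The Tcf4 promoter, for a related E protein, held 33.8, 38.0, 53.3 and 39.8 tags (0.746, 0.596 to 0.933). The region of Ebf1 itself held 9.52, 12.4, 15.8 and 10.4 (0.655, 0.420 to 1.01), just short of 1.5-fold lower with 1 tag added (log2 -0.57) and just past it under TMM (-0.59). Pou2f2, for an octamer factor, held 21.3 and 16.1 (0.757, 0.527 to 1.08), and Spib, for an Ets-family factor, 67.5 and 60.8 (0.901, 0.746 to 1.09). Of these 4 intervals, only that of Tcf4 left out 1. Values at 72 h were the larger ones at the strongest regions of Lef1, Id3 and Irf4, none past 1.5-fold. Lef1, a Wnt-pathway factor of progenitors, had 4 regions with log2 ratios of 0.53, 0.26 (the strongest), -0.17 and -0.30, and all intervals held 1. Id3, an inhibitor of E proteins, held 20.5 and 24.8 tags, and Irf4, an interferon regulatory factor of B cells, 3.28 and 4.90. The weaker Id3 region held 11.5 and 7.49 tags (0.653, 0.384 to 1.09). A closed Tcf4 region held 6.28 and 3.75 (0.596, 0.277 to 1.23) and was the 1 lower region of the list.

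The recombination list had a region for Rag2 and Dntt out of 9 genes, both closed and both at least 1.5-fold higher, as were 8.96% of all regions and 14.8% of closed ones. The Rag2 region held 5.92, 6.91, 7.92 and 13.8 tags (1.75, 1.08 to 2.87). Dntt, the terminal transferase gene, held 4.23, 5.76, 2.73 and 4.61, with an interval of 0.720 to 4.16 and a log2 ratio of 0.59 that was 0.55 under TMM, short of the threshold. Only the Rag2 interval left out 1.

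Surface antigen and cytokine receptor genes (8 of 27 with a region) had a median of -0.04, none higher and 2 lower, beside 8.96% and 5.29% of all regions. Bst1, an ectoenzyme of stromal and B-lineage cells, held 101 and 99.4 tags. The strongest region of Cxcr4, the chemokine receptor gene, held 37.1 and 35.4. Another Cxcr4 region held 5.07, 7.49, 15.8 and 23.3 (1.47, 1.04 to 2.10), with an interval above 1. Cd24a held 71.0 and 84.1 (1.18, 0.999 to 1.41). The lower ones were cytokine receptor genes at low signal. The region near Il5ra held 6.77, 4.03, 5.46 and 2.02 tags (0.369, 0.132 to 0.909) and that near Il2ra 0.420, 3.46, 4.10 and 1.15 (0.281, 0.0680 to 0.883), on 7 and 4 tags before scaling at 72 h. Their Wt values were 38.4 and 28.6 tags. The Il5ra promoter, a closed region, held 3.28 and 3.17 tags at 24 and 72 h (0.967, 0.387 to 2.39) and 144 in Wt.

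Survival and cell cycle genes (4 of 14) had a median of 0.21 with 1 higher, beside 8.96% of all regions. It was the 3' UTR region of Bad, a promoter of apoptosis. It held 33.6, 30.8, 25.7 and 42.4 tags (1.65, 1.26 to 2.16). The promoters of Bcl2l1, its survival-promoting counterpart, and Cdkn2c, a cell cycle inhibitor, held 114 and 125 (1.09, 0.953 to 1.25) and 81.1 and 76.1 (0.938, 0.791 to 1.11). Notch pathway genes (4 of 14) had a median of 0.10 with none past 1.5-fold. Heyl, a Notch target gene, held 4.44, 13.8, 28.1 and 21.9 tags, and Hes1, another, 48.4, 56.8, 69.4 and 69.7 (1.00, 0.839 to 1.20; log2 0.01, and -0.02 under TMM).

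**Figure D4:**
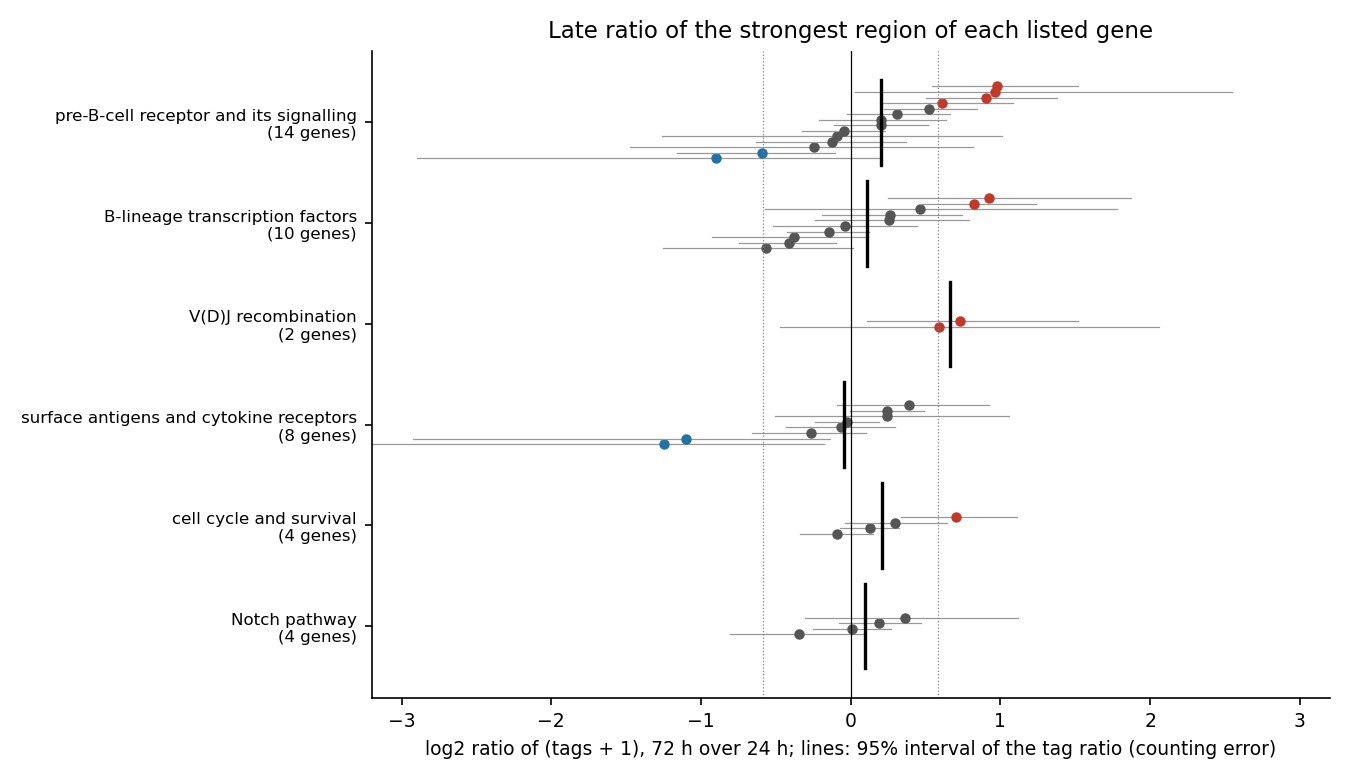
Points give the log2 ratio of 72 to 24 h (x axis, 1 tag added) for the strongest region of each listed gene, grouped by list (y axis); thin lines are 95% intervals of the tag ratio, thick bars list medians, dotted lines 1.5-fold, red points at least 1.5-fold higher and blue at least 1.5-fold lower. The pre-B-cell receptor list spans -0.90 (Vpreb1) to 0.98 (Fcrla) around a median of 0.20, and 1 line runs past the left edge (Il2ra).

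Markers of the labelled cell type could be read only in part. Of the defining markers of B progenitors, Cd79a, Igll1 and Vpreb1 had regions and Pax5 had none. No listed gene of innate lymphoid, myeloid, erythroid or stromal cells had a region, and of 13 T-lineage genes only Cd5 did, at 11.2 and 9.80 tags. Since the tables hold regions near genes enriched in Wt progenitors, the part of other cell types in the late differences was not tested.

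Regions that share a gene were counted together. Of 231 genes with at least 2 regions, 49 had a region that was at least 1.5-fold higher, 32 had one lower, and 6 had both. At least 2 higher regions were found in 3 genes and at least 2 lower in 4, where 8.96% and 5.29% of all regions were called, and nothing about these genes is read from the counts. These were named after their values were seen. Nedd9, an adhesion scaffold gene, had 3 of 7 regions higher and 1 lower, with log2 ratios from -0.76 to 1.03. Its strongest region held 49.7 and 52.7 tags. Ptp4a3, a phosphatase gene, had 2 of 5 higher, among them its promoter (24.3 and 37.5 tags, 1.54-fold, 1.17 to 2.04). Alpl had 2 of 5 lower, and its region at chr4:137788264-137789248 held 5.46 and 2.88 tags where Wt held 172. Mfsd4 had 1 region of each kind, with the lower one at 12.6 and 7.78 tags.

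Other readouts at these regions came from tables that neither time enters. Late gains and losses had like medians at the start and unlike ones in Wt cells; no test was run on these medians. In open regions, the 67 gains and 33 losses had medians of 6.34 and 6.77 tags at 0 h and 8.35 and 6.91 at 6 h. In Wt progenitors the medians were 32.8 tags at the gains and 17.95 at the losses. The median log2 ratio of 0 h to Wt was -2.01 at the gains, -1.06 at the losses and -1.12 at the 816 open regions that were neither. H3K27ac, a mark of active elements, had Wt medians of 29.7 tags at the gains and 18.9 at the losses, with 7.22 and 6.48 in Ebf1-KO cells. E2A-KO cells, which lack another B-lineage factor, had a median log2 ratio to Wt of -1.51 at the gains, -0.92 at the losses and -1.08 at neither. By its header the Wt column combines 6 libraries at a fragment setting of 180, whereas 3 Wt samples are labelled, so only differences between sets of regions are read from it.

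In closed regions the Wt accessibility of gains and losses was closer, while H3K27ac was again higher at the gains. Wt medians were 13.3 tags at the 38 gains, 12.2 at the 29 losses and 14.4 at the 189 others. H3K27ac in Wt was 18.8, 11.2 and 14.2 tags at the median. The 72 h value was below the Wt value at 97 of the 105 gains (92.4%) and at 1006 of all 1172 regions (85.8%). Pou2af1 (11.8 against 123), Igll1 (36.6 against 97.4), Cd79a (31.4 against 74.6) and Foxo1 (44.7 against 104) are examples. Since the Wt column is read only for differences between sets of regions, no shortfall in level is concluded from these values.

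The marks repeat that order in part. In open regions the median log2 ratio of Wt to Ebf1-KO was 1.39 at the gains, 1.05 at the losses and 0.06 at neither for H3K4me2. For H3K4me3 it was 1.11, 0.71 and -0.15, for RNA polymerase II (PolII) 1.57, 1.27 and 0.83, for the acetyltransferase EP300 1.19, 0.62 and 0.34, and for the remodeller BRG1 0.75, 0.29 and 0.04. Both sets past 1.5-fold thus had more of these signals in Wt than in Ebf1-KO cells, and the gains more than the losses. Both also have lower levels at 0 h than the open regions that are neither (15.9 tags), and the part of level in this order was not tested. The antibody field of the Wt EP300 sample names PolII with a question mark, and so the EP300 values carry that doubt. For H3K27me3, the Polycomb mark, the open medians were -0.09, -0.23 and 0.04. In closed regions the medians at gains, losses and neither were 2.54, 1.91 and 2.29 for H3K4me2, 2.296, 1.21 and 1.75 for H3K4me3, 2.35, 1.95 and 2.02 for H3K27ac, and 1.63, 1.20 and 1.43 for BRG1. For these 4 signals the losses lay below the regions that were neither, unlike in open regions. PolII (2.63, 2.32 and 2.23) and EP300 (1.58, 1.605 and 1.40) had losses above neither.

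**Figure D5:**
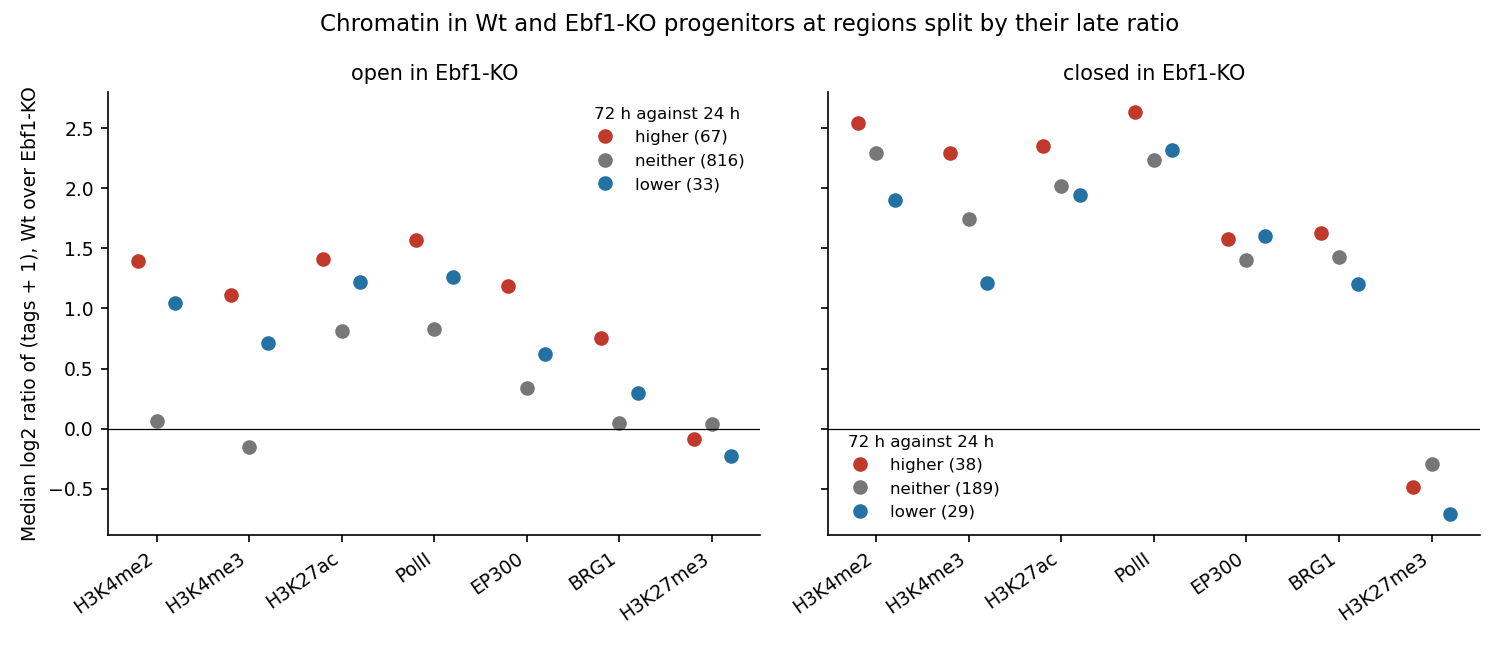
Points are medians over regions of the log2 ratio of Wt to Ebf1-KO signal (y axis, 1 tag added) for each mark or factor (x axis), for regions at least 1.5-fold higher (red), lower (blue) or neither (grey) at 72 against 24 h, open regions left and closed regions right. In open regions the red points lie highest for every mark but H3K27me3, as for H3K4me2 at 1.39 against 1.05 and 0.06.

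Single genes show the range. At Igll1, EP300 was at 82.0 tags in Wt and 3.45 in Ebf1-KO cells, PolII at 141 and 3.76, and H3K27ac at 58.2 and 14.1. At the gaining region of Foxo1 the pairs were 96.6 and 8.93, 124 and 5.47, and 83.1 and 35.5. At Cmah and A230028O05Rik, which are also gains, EP300 and BRG1 were instead lower in Wt than in Ebf1-KO cells. Cmah had EP300 at 4.38 in Wt and 31.0 in Ebf1-KO, and BRG1 at 8.14 and 31.7. A230028O05Rik had EP300 at 5.60 and 13.6, and BRG1 at 4.16 and 41.9. H3K27ac differed less, at 44.4 and 37.2 in Cmah and 47.6 and 46.5 in A230028O05Rik. Among the losses, Lamc1 had PolII at 101 and 17.8. Apmap and Plekha2, just short of 1.5-fold lower with 1 tag added, had H3K27ac at 11.2 and 9.25 tags and at 17.1 and 16.8.

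Fli1, an Ets-family factor, had a peak in Wt progenitors at 62.7% of the open gains, 48.5% of the open losses and 70.7% of the open regions that were neither. For the lymphoid zinc finger factor Ikzf1 these were 26.9%, 24.2% and 30.6%. An H3K4me3 PLAC-seq contact of any kind in the Abelson line touched 97 of 105 gains and 53 of 62 losses, beside 1066 of all 1172 regions. A contact with the promoter of the region's own gene was found for 17 gains (16.2%), 11 losses (17.7%) and 208 of all regions (17.7%), so gains and losses were close to the background of the tables.

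Around the threshold of 1.5-fold (0.58 in log2, with 1 tag added to each value), regions on either side had like values, and were picked by nearness to it. Just inside were Smarca4, the BRG1 gene (16.7 and 25.6 tags, 0.59), and Glyctk (13.7 and 21.03, 0.59). Just outside were Ano6 (6.01 and 9.51, 0.58) and Kcnh4 (20.5 and 31.1, 0.58). On the other side, Hipk2 (16.9 and 10.95, -0.59) was just inside and Tpd52 (9.56 and 6.05, -0.58) just outside.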

How the data were processed

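ATAC-seq signal was used as the authors deposited it: tags per region in each pooled column, scaled to 10000000 by HOMER and, per the file headers, with mitochondrial reads removed. Reads had been aligned to mm10, and Bowtie2 2.3.5 and HOMER 4.10 are named per the submitters' processing notes. Fli1, Ikzf1 and Abelson-line peaks were deposited with a score per peak, and PLAC-seq contacts with a count per pair of 5 kb bins; here peaks and contacts were used only for overlap of at least 1 base. Columns that match no labelled sample (2) were not used.

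Each time point is 1 combined column, so the planned limma test over samples could not be run. Unscaled tags were recovered from the column totals (at most 0.0236 from a whole number), exact Poisson intervals were computed for values, and the exact conditional 95% interval for the ratio of tags. PCR duplicates and differences between cultures are outside these intervals. Log2 ratios had 1 tag added, and regions past 1.5-fold were counted. TMM factors came from edgeR 4.0.16 in R 4.3.3. Other steps used Python 3.11.15, pandas 2.3.3 and SciPy 1.17.1, and were checked on simulated data. The EP300 label doubt stands beside its values.

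Named regions were the 12 largest ratios in each direction with at least 20 tags at 24 or 72 h (1 per gene), the 5 largest per class with at least 10 tags, up to 8 genes per list, and all regions of chosen network genes. Grn, the genes with several regions that moved alike, and the threshold neighbours were chosen after their values were seen. Some of the named regions are not reported here. Members and gene lists were chosen with earlier results of these data known. Alternatives covered scaling, pseudocount, low values, fold, interval and region length.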

Additional observations from a re-analysis of the deposited data

How the results depend on the processing

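No paired analysis was possible because each time point is 1 pooled column, and leaving out a replicate was not possible for the same reason. No region past 1.5-fold changed direction under TMM. Among group medians the promoter median changed sign under TMM, the transcription factor median was -0.04 when all regions of the genes were counted, and among the named regions only Hes1, close to 0, changed sign under TMM. Under TMM the median log2 ratio was 0.0275 over all regions, 0.0211 in open regions, 0.0239 with a Pax5 peak, 0.0390 outside promoters and -0.0206 at promoters, where 3 were higher. Of the 105 higher and 62 lower regions, 87 and 62 kept their call. TMM gave 1 lower transcription factor and 1 higher recombination gene, and counting all regions of the genes also gave 1 lower factor.

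With 5 tags added, higher and lower regions numbered 26 and 14 in all, 5 and 2 closed, 21 and 12 open, 17 and 5 with a Pax5 peak, 9 and 9 without, 2 and 2 at promoters, and 24 and 12 elsewhere. Among the 795 regions with a value of at least 10, 53 were higher and 23 lower. By class they numbered 6 and 2 of 37 closed regions (median 0.18) and 47 and 21 of 758 open ones. With a Pax5 peak they were 34 and 7 of 478 regions, and without one 19 and 16 of 317. Outside promoters 48 were higher and 20 lower, and 3 of 152 promoters were lower. At 2-fold there were 14 and 16, with an interval that leaves out 1 there were 65 and 33. Of the 503 regions of 500 to 1000 bases, 63 were higher and 34 lower. Both the larger pseudocount and the filter remove low regions by construction. Depth limits the closed regions most: their median was 16 unscaled tags at each time, against 79 and 77 in open regions.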
